A study of Mus musculus with 12 samples.

Results

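The genes described here are Pvalb, Spp1, Whrn, Calb1, Calb2, Calm2 and Calm3, a set of effectors of proprioceptive sensory neurons (Pvalb, Spp1, Whrn) and of calcium-binding proteins. Of these, Calb1, Calb2, Calm2 and Calm3 were not called higher in any pull-down, apart from Calb2 with an alternative test. The 7 genes were taken by symbol from a list of names, which was chosen with earlier results of these data known. All 7 are among the 14177 genes listed for the libraries labelled Cre-, and 5 of them are among the 9112 genes listed for the libraries labelled Cre+. Pvalb and Calb2 are the exceptions, and the table of the libraries labelled Cre+ holds only genes with at least 5 counts in each of its 6 libraries.

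The libraries came from dorsal root ganglion (DRG) neurons of male mice, 3 to 6 months old by the labels, grown for 24 h. All mice carried Rpl22HA/HA, a ribosomal protein gene that acquires an HA tag where Cre recombinase acts. One genotype was labelled Runx3-Cre+, with Cre under Runx3, a transcription factor of proprioceptors, and the other was its Runx3-Cre- littermates, which served as the background control. Each sample pooled the neurons of 5 mice, and RNA was sequenced from an anti-HA pull-down of ribosomes and from 10% of the lysate as input, with 3 libraries in each of the 4 groups. The neurons were purified on Percoll and grown with serum, and glial genes were still counted in the inputs, which are therefore not pure neuronal RNA. The replicates are separate pools, and nothing in the labels places them on separate days.

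A library held between 8886308 and 18633365 counts on the genes of its table. Pairs of Cre+ pull-downs correlated across genes with r from 0.706 to 0.847 on the log scale, against 0.943 to 0.972 for Cre- pull-downs, and the first Cre+ pull-down stood farthest from the rest. Runx3, whose gene drives Cre, was called higher in the pull-down labelled Cre-, the background control (log2 fold change 3.52, standard error 0.43, FDR = 0.000236), and had 1.55 in the one labelled Cre+ (standard error 0.87, FDR = 0.309). The difference between both did not pass its test (-1.93, FDR = 0.302), and passed without the first Cre+ pull-down (-2.78, FDR = 0.0731). Whether labels or tables were exchanged was not tested, and Cre+ and Cre- denote the labels as deposited throughout. Of 15 other proprioceptor markers, which include Runx3, 13 could be tested in Cre- and 8 in Cre+, and the summed level of the 8 genes listed in both tables was 4240 to 4914 normalized counts in the Cre- pull-downs and 2022 to 2842 in the Cre+ pull-downs. The inputs had 1650 to 1698 (Cre-) and 1355 to 1502 (Cre+).

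Proprioceptors innervate muscle spindles and tendon organs and report muscle length and force. Parvalbumin, encoded by Pvalb, is a calcium buffer and the classical marker of these neurons. Osteopontin (Spp1) is a secreted phosphoprotein that binds integrins and CD44, and whirlin (Whrn) is a PDZ scaffold best known from stereocilia of hair cells and also found in proprioceptors. Calbindin (Calb1) and calretinin (Calb2) are fast calcium buffers that mark subsets of neurons. Calm2 and Calm3 encode an identical calmodulin, the calcium sensor of many kinases and channels. Parvalbumin, the calbindins and calmodulin hold calcium in EF-hand loops, in which acidic and polar side chains at fixed spacing coordinate the ion.

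The coding sequences separate these genes by that feature. EF-hand loops were searched in the reading frame of the coding strand (GRCm38, GENCODE M21) as 12 codons with GAT or GAC at codon 1, a codon for aspartate, asparagine or serine at codons 3 and 5, GGN at codon 6 and GAA or GAG at codon 12. Pvalb had 2 matches, Calb1 4, Calb2 5, Calm2 4 and Calm3 4. Whrn had 0, and the single match in Spp1 lies in a stretch of aspartate codons that is not a known EF-hand. Of 10686 coding genes scanned, 143 (1.34%) had a match. One loop-coding stretch of each of the 3 buffer genes shows the shared pattern, with the first and the last codon in capitals, at chr15:78202526-78202561 on the minus strand for Pvalb, chr4:15895644-15895679 on the plus strand for Calb1 and chr8:110149362-110149397 on the minus strand for Calb2.
Pvalb loop: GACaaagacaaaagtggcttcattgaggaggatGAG
Calb1 loop: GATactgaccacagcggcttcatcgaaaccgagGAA
Calb2 loop: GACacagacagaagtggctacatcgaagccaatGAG

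Calm2 and Calm3 are shown because their transcripts were measured separately although their protein is the same. The stretch of the first loop lies at chr17:87435873-87435908 for Calm2 and at chr7:16917667-16917702 for Calm3, both on the minus strand. Capitals mark the 7 of 36 positions at which both genes differ.
Calm2 first loop: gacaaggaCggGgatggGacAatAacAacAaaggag
Calm3 first loop: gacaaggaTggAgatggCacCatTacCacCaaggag
Over their 447 coding bases Calm2 and Calm3 were 82.6% identical. The longest identical run was 17 bases, shorter than a read of 50 bases, and 0 windows of 50 bases were shared between both transcripts. Reads from these genes are therefore separable from each other, although 147 of 1156 windows of Calm2 (12.7%) and 62 of 2241 of Calm3 (2.77%) also occur in transcripts of other annotated genes, from which uniquely mapped reads would be lost. The coding sequence of Spp1 carries the integrin-binding RGD codons, shown in capitals at chr5:104439472-104439498 on the plus strand. The search was for CGN, AGA or AGG followed by GGN and by GAT or GAC in frame, and 911 of 10686 coding genes (8.53%) had such a run.
Spp1 RGD stretch: cccaacggcCGAGGTGATagcttggct

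Expression is given as normalized counts, that is CPM after trimmed mean of M-values (TMM) scaling within a genotype. Enrichment in the pull-down over its input was tested with the quasi-likelihood method of edgeR, and genes were called at a Benjamini-Hochberg adjusted p-value (FDR) below 0.1 with at least a 2-fold change. In the libraries labelled Cre-, Pvalb, Spp1 and Whrn were higher in the pull-down, by 7.91-, 6.39- and 10.2-fold, whereas Calb1, Calb2, Calm2 and Calm3 were not called. In the libraries labelled Cre+, none of the 5 listed genes was called higher and Calm2 was called lower, by 3.31-fold. Thus 3 of 7 genes were called higher in Cre-, where 6.01% of 11526 genes were, and 0 lower, where 5.83% were. In Cre+, 0 of 5 were called higher, where 4.72% of 8947 genes were, and 1 of 5 lower, where 2.19% were. Since the genes were chosen with earlier results of these data known, these shares describe the set and do not test it. Genes entered the tests with a mean FPKM above 1 over inputs and pull-downs, which all 7 genes passed in Cre-. Calb2 did so barely and through its pull-downs (0.335 normalized counts per kilobase in the inputs, 1.46 in the pull-downs), and Whrn was likewise low in the inputs (0.528 against 5.36), so that the filter favoured a positive value in both. Without it Whrn was still called (3.34). The median log2 fold change of all genes was -0.04 in Cre- and 0.08 in Cre+. Scaling by library size alone moved it to -0.27 and -0.36, and upper-quartile scaling moved it to -0.12 in Cre+. Before any test, all pull-downs lay above all inputs in 3 of 7 genes in Cre- (18.2% of the genes tested) and below them in 0 (18.6%). In Cre+ they lay above in 0 of 5 (15.5%) and below in 2 (17.9%).

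**Figure D1:**
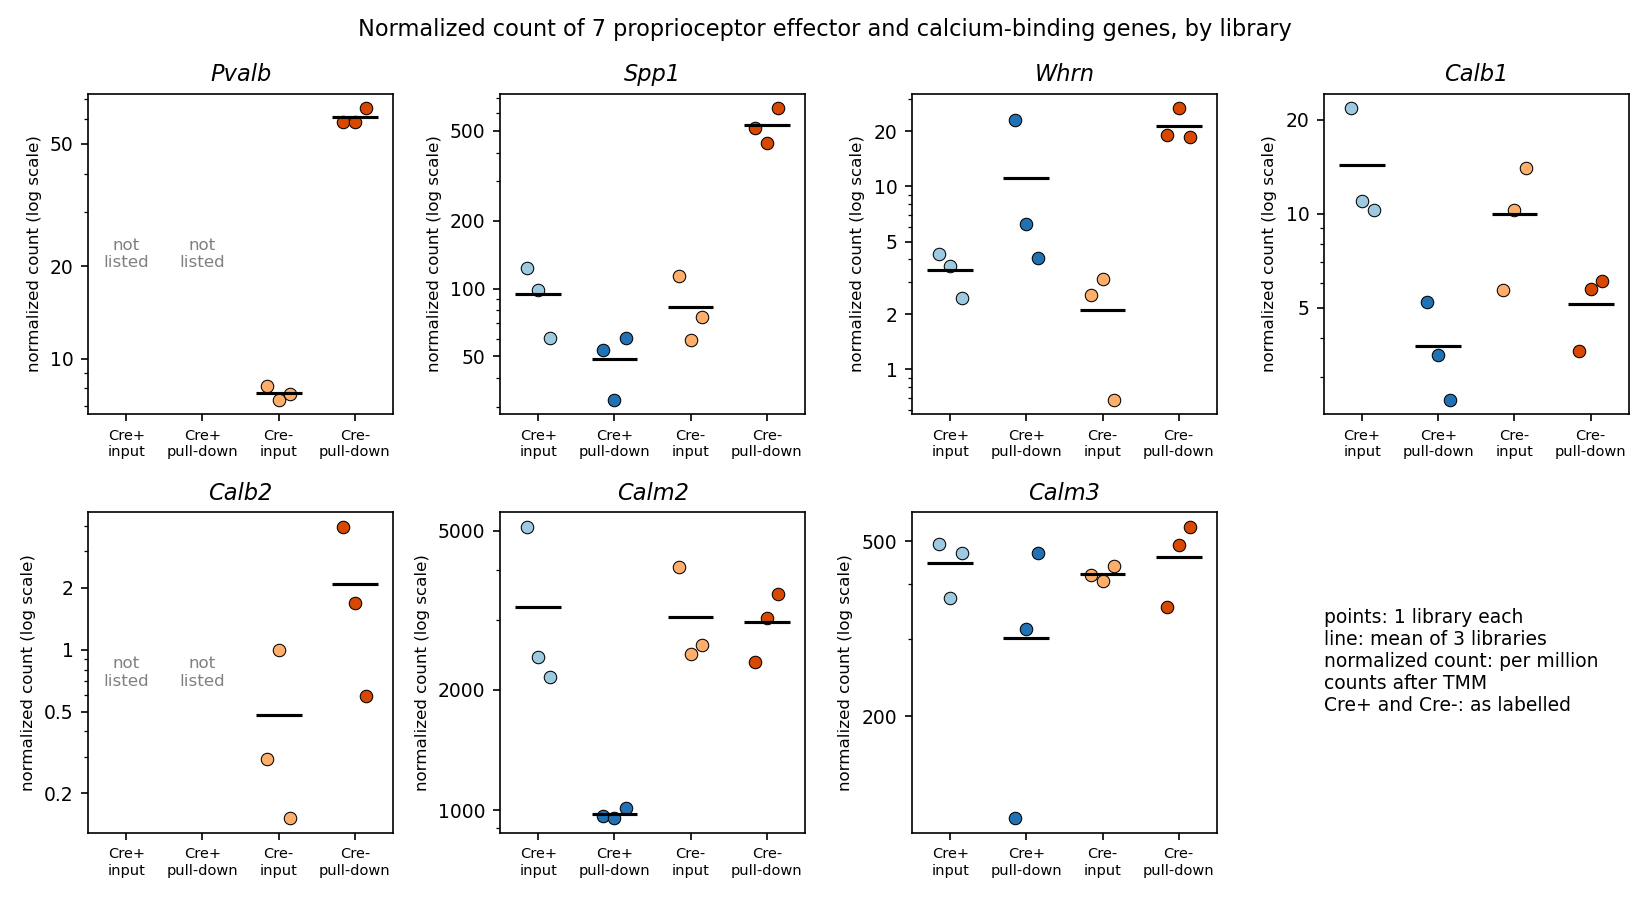
Normalized count of each gene (log axis) in each library, as 1 point, for inputs and pull-downs labelled Cre+ (light and dark blue) and Cre- (light and dark orange), with the mean of 3 as a line. Pvalb, Spp1 and Whrn sit above their inputs in every Cre- pull-down, and Calm2 sits near 978 in all Cre+ pull-downs, below every other library.

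Pvalb lies on chromosome 15 of GRCm38 from 78191112 to 78206400 and shares no exon base with another gene. It had 8.13, 7.35 and 7.66 normalized counts in the inputs labelled Cre-, from 83, 89 and 101 counts. The pull-downs labelled Cre- had 58.7, 59.0 and 65.4, from 1052, 871 and 878 counts. Every pull-down lay above every input. This gave a log2 fold change of 2.98 (standard error 0.23, 95% confidence interval 2.48 to 3.48, FDR = 2.33e-05), larger than that of 99.7% of the genes tested. Across the 14 alternatives it stayed between 2.75 and 3.03 and was called in all of them. The input is part of the lysate, so this value is not a difference in expression between cultures. Bulk RNA does not resolve the cells that hold the transcript, and the source of the enrichment was not tested. Parvalbumin is also abundant in fast muscle, and of 8 striated muscle genes only Mylpf and Actn3 were listed for Cre-, with a sum of 0.744 to 1.22 in the pull-downs and 0 to 0.826 in the inputs.

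In the libraries labelled Cre+ Pvalb was not listed, so no value was analysed there. Of 2032 genes whose mean in the Cre- inputs lay within 1.5-fold of that of Pvalb, 1181 (58.1%) were listed for Cre+. Calb2 was not listed there either, in company with all 47 genes of a like mean in the Cre- inputs.

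Spp1 lies on chromosome 5 from 104435111 to 104441053, and 18.75% of its exon bases are shared with Gm42793. Only 28 of its 1361 windows of 50 bases (2.06%) occur in that gene's transcript. The inputs labelled Cre- had 113.8, 59.4 and 74.8 normalized counts and the pull-downs 514, 439.7 and 629.6. All 3 pull-downs lay above all inputs, a log2 fold change of 2.68 (standard error 0.24, 95% confidence interval 2.15 to 3.20, FDR = 4.72e-05). In the libraries labelled Cre+ the inputs had 123.9, 98.8 and 60.3 and the pull-downs 53.4, 32.2 and 60.5. These groups overlapped narrowly, since the third pull-down lay just above the lowest input. Here the enrichment of -0.95 on the log2 scale (standard error 0.43, FDR = 0.22) was not called, although it was with scaling by library size alone (-1.41, FDR = 0.088).

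Macrophages also make osteopontin, and their markers were set beside it. Of 12 such genes, 10 were listed for Cre-, and their sum was 88.6 to 120.5 normalized counts in the pull-downs and 81.2 to 146.2 in the inputs. Cd68 and Csf1r together had 35.3 to 116.7 of this sum in the inputs and 23.9 to 55.5 in the pull-downs. Cd68, a lysosomal protein, had 399 to 1163 counts in the inputs and 252 to 883 in the pull-downs (log2 fold change -1.04, FDR = 0.303). The other 6 tested had positive values, with a median of 0.60 over all 7 (all genes, -0.04). Lyz2, a lysozyme, had 85 to 230 counts in the inputs and 310 to 412 in the pull-downs (0.84, FDR = 0.0978), and Cd74, the invariant chain, 120 to 137 and 203 to 410 (0.81, FDR = 0.0823), both short of 2-fold. Of 7 tested there, 1 was called higher (Itgam, an integrin subunit, by 1.28, standard error 0.32, FDR = 0.0157) and 0 lower, where 6.01% and 5.83% of all genes were. Only Cd68 and Csf1r were listed for Cre+, with a sum of 4.85 to 112.3 in the pull-downs and 25.8 to 68.2 in the inputs. The part of these cells in the level of Spp1 was not tested.

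Whrn lies on chromosome 4 from 63414908 to 63496083 and shares no exon base with another gene. It was a low-count gene, with 26, 38 and 9 counts in the Cre- inputs and 344, 396 and 249 in the Cre- pull-downs. The normalized counts were 2.55, 3.14 and 0.682 in those inputs against 19.2, 26.8 and 18.5 in the pull-downs, with no overlap. Its log2 fold change of 3.35 (standard error 0.49, 95% confidence interval 2.29 to 4.40, FDR = 0.000715) was the largest of the 7 genes. The Cre+ inputs had 4.28, 3.68 and 2.47, and the Cre+ pull-downs 23.0, 6.22 and 4.04. Thus only the first Cre+ pull-down reached the range of the Cre- pull-downs, and the third lay below the highest input. The Cre+ log2 fold change of 1.67 (standard error 0.80, FDR = 0.238) was not called. Without the first Cre+ pull-down it was 0.60 (FDR = 0.553), and in the fit of all 12 libraries together it was called (1.67, FDR = 0.0978). In Cre+ too Whrn was low in the inputs (0.865 normalized counts per kilobase, 2.76 in the pull-downs), so that the FPKM filter favoured a positive value. Without that filter it was not called within Cre+ (1.67, FDR = 0.246).

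Calb1, on chromosome 4 from 15881264 to 15906709, had a lower mean in the pull-downs than in the inputs of both genotypes and was called in neither. The Cre+ inputs had 21.8, 11.03 and 10.3 normalized counts and the Cre+ pull-downs 5.22, 3.54 and 2.54, with every pull-down below every input. The resulting log2 fold change was -1.93 (standard error 0.68, 95% confidence interval -3.45 to -0.41, FDR = 0.136), which was not called. It was called with DESeq2 (-1.86, FDR = 0.0565), with the exact test (-1.93, FDR = 0.0913), with scaling by library size alone (-2.38, FDR = 0.0812), in the fit of all 12 libraries (-1.93, FDR = 0.0257) and without the first Cre+ pull-down (-2.20, FDR = 0.0779). In Cre- the inputs had 5.68, 10.3 and 14.0 and the pull-downs 3.63, 5.76 and 6.10. These groups overlapped, and the log2 fold change of -0.96 (standard error 0.43, FDR = 0.155) was called only with scaling by library size alone (-1.20, FDR = 0.0676) and without the first Cre- input (-1.24, FDR = 0.0803).

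Calb2, on chromosome 8 from 110142526 to 110168212, was the scarcest of the 7 genes in the Cre- inputs. The Cre- inputs held 3, 12 and 2 counts and the pull-downs 71, 25 and 8. On the normalized scale the inputs had 0.294, 0.991 and 0.152 and the pull-downs 3.96, 1.69 and 0.596, so that the third pull-down lay below the second input. The log2 fold change was 2.11 with a standard error of 0.95 (95% confidence interval 0.04 to 4.18, FDR = 0.153), and it was called only with the exact test (FDR = 0.0793). Leaving out single libraries moved it between 1.27 and 3.21.

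**Figure D2:**
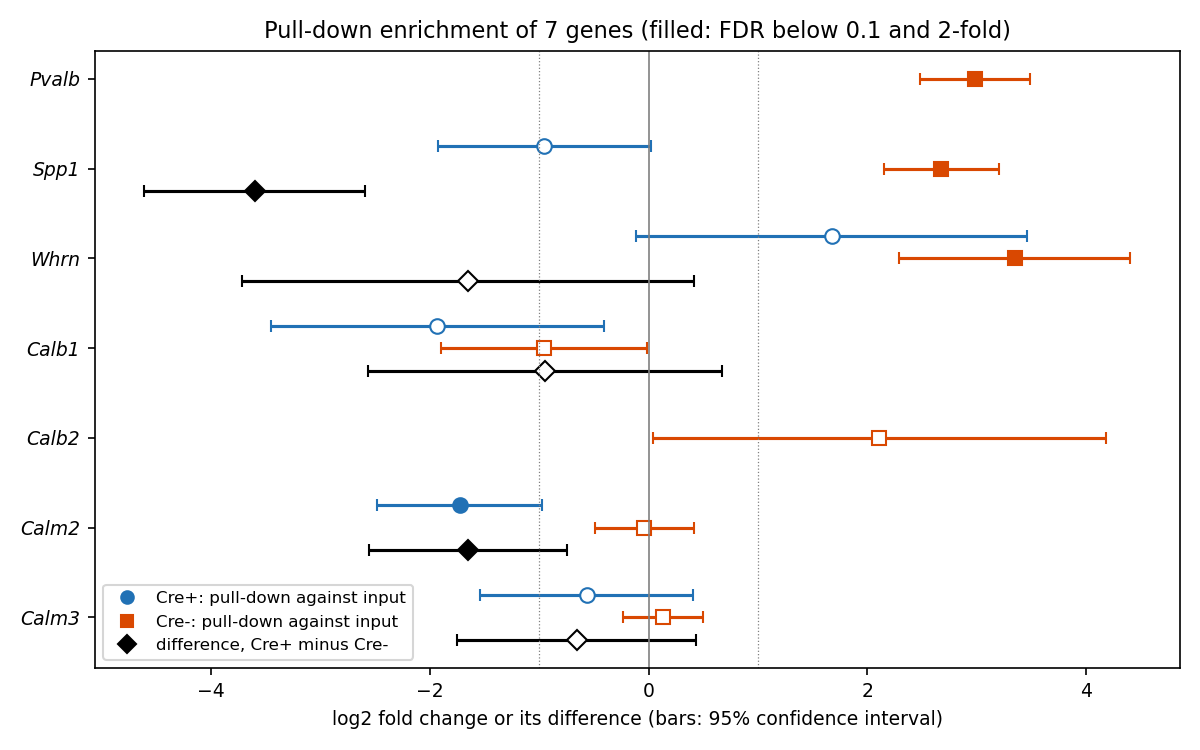
Log2 fold change of pull-down against input in the libraries labelled Cre+ (circles) and Cre- (squares), and the difference between both (diamonds), with 95% confidence intervals. Filled symbols passed FDR below 0.1 and a 2-fold change, and Spp1 (-3.60) and Calm2 (-1.65) have filled diamonds.

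Calm2 and Calm3 were far more abundant. Calm2, on chromosome 17 from 87433401 to 87446935, had 5128, 2421 and 2150.4 normalized counts in the Cre+ inputs. The Cre+ pull-downs had 966, 955 and 1013. Hence the pull-downs were nearly alike, while the first input stood far above the others. Calm2 had a log2 fold change of -1.72 (standard error 0.34, 95% confidence interval -2.48 to -0.97, FDR = 0.0422) in Cre+, and every pull-down lay below every input. The call was lost without the first Cre+ input (-1.22, FDR = 0.118), without the third Cre+ input (-1.95, FDR = 0.112) and without the third Cre+ pull-down (-1.73, FDR = 0.10001). In Cre- the inputs had 4070, 2455 and 2586 and the pull-downs 2345, 3024 and 3483. There the groups overlapped, with a log2 fold change of -0.04 (standard error 0.21, 95% confidence interval -0.49 to 0.41, FDR = 0.918).

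Calm3, on chromosome 7 from 16915379 to 16924032, had 493, 371 and 471 normalized counts in the Cre+ inputs and 117.2, 316 and 471 in the Cre+ pull-downs. The first Cre+ pull-down was thus well below the other libraries and the third was level with its inputs. The log2 fold change was -0.56 (standard error 0.43, 95% confidence interval -1.54 to 0.41, FDR = 0.453). In Cre- the inputs had 419.7, 405 and 438 and the pull-downs 354, 491 and 539.7. The log2 fold change of 0.13 (standard error 0.17, 95% confidence interval -0.24 to 0.50, FDR = 0.647) turned to -0.11 with scaling by library size alone and was not called under any alternative.

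The ratio of counts within a library, which needs no scaling, set Calm2 against Calm3. It was 10.4, 6.52 and 4.56 in the Cre+ inputs and 8.24, 3.03 and 2.15 in the Cre+ pull-downs. In Cre- it was 9.70, 6.06 and 5.90 in the inputs and 6.63, 6.16 and 6.45 in the pull-downs. The second and the third Cre+ pull-down were the lowest of the 12 libraries, but the first lay within the range of the inputs, so the groups overlapped. The Cre- pull-downs had the narrowest spread (6.42 ± 0.236, SD, n = 3) and the Cre+ pull-downs the widest (4.47 ± 3.29).

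By their label the Cre- cultures control for RNA that the beads hold without a tag. The enrichment in both genotypes was therefore compared by the test of the difference, in a fit of all 12 libraries. The sign of each difference rests on the labels as deposited, and whether these were exchanged was not tested. Of the 5 genes in that fit, 2 differed, both toward a lower enrichment in the libraries labelled Cre+, where 2% of 9006 genes were called in that direction and 2.3% in the other. For Spp1 the difference on the log2 scale was -3.60 (standard error 0.47, 95% confidence interval -4.61 to -2.59, FDR = 0.00258). This call held under all 18 alternatives, with values from -3.90 to -3.35. For Calm2 the difference was -1.65 (standard error 0.42, 95% confidence interval -2.56 to -0.75, FDR = 0.0701). It was lost without the first Cre+ input (-1.15, FDR = 0.141), the second Cre- input (-1.52, FDR = 0.2), the third Cre- input (-1.55, FDR = 0.174), the second Cre- pull-down (-1.64, FDR = 0.16) and the third Cre- pull-down (-1.51, FDR = 0.194). For Whrn the difference was -1.65 with a wider standard error of 0.96 (95% confidence interval -3.71 to 0.41, FDR = 0.362), and it was called without the first Cre+ pull-down (-2.74, FDR = 0.0561). The differences of Calb1 (-0.95, 95% confidence interval -2.56 to 0.67, FDR = 0.508) and Calm3 (-0.66, 95% confidence interval -1.75 to 0.44, FDR = 0.496) did not pass, and their intervals reach beyond 2-fold in the lower direction.

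**Figure D3:**
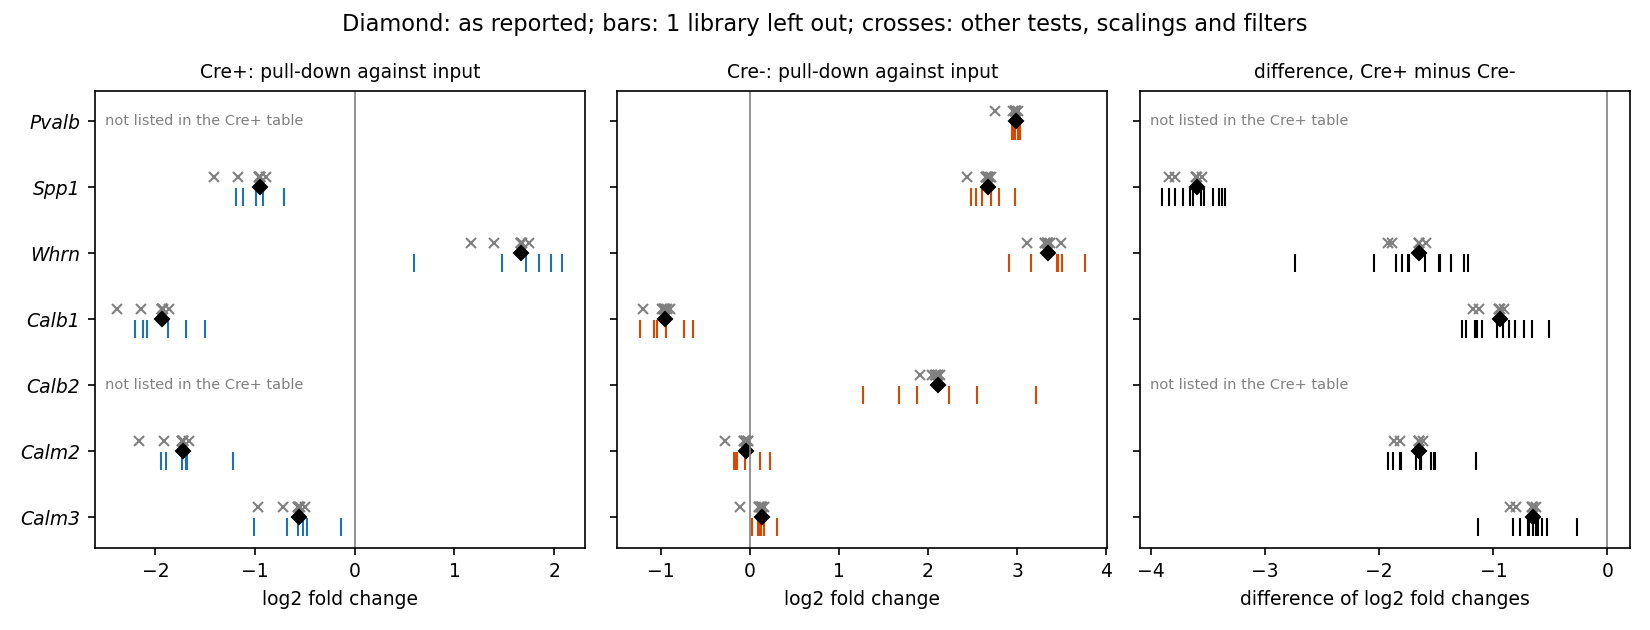
Log2 fold change of pull-down against input in Cre+ (left) and Cre- (middle) and the difference between both (right), as reported (diamonds), with 1 library left out (bars) and with other tests, scalings and filters (crosses). Pvalb and Spp1 in Cre- and the difference of Spp1 (-3.90 to -3.35) stay clear of 0, and Whrn in Cre+ and its difference move most without the first Cre+ pull-down.

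Setting pull-down against pull-down, Spp1 was lower in Cre+ than in Cre- by -3.33 on the log2 scale (standard error 0.35, FDR = 0.000162) and Calm2 by -1.49 (standard error 0.30, FDR = 0.00916), with every Cre+ pull-down below every Cre- pull-down, as for 15% of the genes tested (13.5% lay above). The other 3 overlapped. In this comparison 7.12% of 9006 genes were called lower and 10.8% higher. A fit of the 6 pull-downs alone called far fewer genes, 132 lower and 121 higher, and still called Spp1 (-3.36, FDR = 0.00614) and Calm2 (-1.51, FDR = 0.0179). Whrn (-0.86, FDR = 0.397), Calb1 (-0.35, FDR = 0.686) and Calm3 (-0.50, FDR = 0.355) were not called, and Whrn was without the first Cre+ pull-down (-1.95, FDR = 0.0395). Between the inputs, the 5 genes differed by 0.15 to 0.79 on the log2 scale (higher in Cre+ for all 5, except Calm2 without the first Cre+ input, and every FDR 0.99986), and 0 of 9006 genes (0%) were called with edgeR's quasi-likelihood test. The inputs overlapped in all 5 genes, where 3.82% of all genes lay above and 3.98% below in Cre+. At an unadjusted p below 0.05, 20 genes passed, 0.222% of those tested, and DESeq2 and the exact test each called 0. This share is far below the fraction of 0.05 that would pass with no difference at all. The test of the inputs was thus conservative, for a reason not tested, and the absence of calls does not show that the inputs were alike. For Spp1 the 95% confidence interval of the input difference ran from -0.43 to 0.96, and for Calm2 from -0.47 to 0.80, so a smaller difference within these limits was not detectable here. The inputs and the pull-downs enter several of these comparisons together, and their values are not independent of each other.

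Marker genes of other cells were set beside the same pull-downs. Between the pull-downs, 4 of 5 endothelial, 2 of 5 fibroblast and 4 of 12 other sensory genes were called higher in Cre+, and 4 of 10 pan-neuronal genes lower, where 10.8% and 7.12% of all genes were. No gene was called among 6 of satellite glia and Schwann cells or 2 of macrophages. The sum of 5 endothelial genes was 134.4 to 750.5 normalized counts in the Cre+ pull-downs, 20.7 to 173.5 in the Cre- pull-downs and 69.3 to 104.3 in the inputs. Over the 12 genes of other sensory neurons in both tables it was 2719 to 3485 in the Cre+ pull-downs and 1605 to 2366 in the Cre- pull-downs, against 3169 to 3550 in the inputs. For 10 pan-neuronal genes the Cre- pull-downs had 46050 to 53287 and the Cre+ pull-downs 20681 to 23101, with 19984 to 27862 in the inputs. Single genes were less uniform than this sum. In Cre-, 6 of the 10 had a positive log2 fold change over input (median 0.33) and 2 were called higher, Nefm and Snap25. By the test of the difference, 1 was called higher in Cre+ (Rbfox3, 1.01, FDR = 0.0696) and 2 lower. Over the 6 satellite glia and Schwann cell genes in both tables the sum was 1647 to 2599 in the Cre+ pull-downs, 1120 to 1582 in the Cre- pull-downs and 2660 to 4282 in the inputs, and for 5 fibroblast genes it was 88.4 to 264.8, 33.7 to 114.2 and 67.5 to 115.0. The part of these cells in the differences of Spp1 and Calm2 was not tested.

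Levels between genes were compared per kilobase of transcript. In the Cre- inputs the order was Calm2 (2520.5 ± 745 normalized counts per kilobase, SD, n = 3), Calm3 (183.9 ± 7.31), Spp1 (58.6 ± 19.9), Pvalb (8.09 ± 0.416), Calb1 (2.37 ± 0.990), Whrn (0.528 ± 0.319) and Calb2 (0.335 ± 0.314). Whrn and Calb2 overlapped and all other neighbours did not. In the Cre- pull-downs Spp1 (374 ± 67.9) stood above Calm3 (201.4 ± 42.1), while Calm2 (2449 ± 475) stayed first, and Pvalb (64.0 ± 3.95) and Whrn (5.36 ± 1.15) followed. The last places there, Calb2 (1.46 ± 1.20) and Calb1 (1.22 ± 0.318), did not differ beyond their spread. In the Cre+ inputs the order was Calm2 (2683 ± 1367), Calm3 (194.4 ± 28.3), Spp1 (66.9 ± 22.7), Calb1 (3.41 ± 1.53) and Whrn (0.865 ± 0.229). In the Cre+ pull-downs it was Calm2 (812 ± 25.8), Calm3 (131.5 ± 77.4), Spp1 (34.5 ± 10.4), Whrn (2.76 ± 2.58) and Calb1 (0.892 ± 0.321), of which only Whrn and Calb1 overlapped. Spp1 therefore ranked above Calm3 in the Cre- pull-downs and below it in the other 3 groups. The authors' mean FPKM put Calb1 above its input and pull-down means given here, at 3.15 in Cre- and 4.01 in Cre+. Its places beside Whrn and Calb2 are therefore less certain.

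Across the 6 Cre- libraries the log2 normalized counts of Pvalb followed those of Spp1 (Pearson r 0.982) and Whrn (0.956), and went against those of Calb1 (-0.709). Calb2 correlated with Pvalb at 0.640, and Calm2 did so at -0.00097. Across all 12 libraries Spp1 and Whrn correlated at 0.581, Calm2 and Calm3 at 0.576, and Calm2 and Calb1 at 0.622. Among the genes with the most similar pattern were Sparcl1 and Sult4a1 for Pvalb (both 0.999, over 6 libraries), and Ice1, Ctr9 and Gpatch8 for Calb2 (0.991, 0.988 and 0.988, over 6 libraries). Over 12 libraries they were Snap25 and Mcam for Spp1 (both 0.965), and Kndc1, Pacs1 and Atp2b3 for Whrn (0.956, 0.952 and 0.947). For Calb1 they were Cops5, Rn45s and C1galt1c1 (0.947, 0.923 and 0.918), for Calm2 Pomp, Atp5o and Gabarapl2 (0.972, 0.956 and 0.952), and for Calm3 Rab11a, Rnf115 and Amz2 (0.984, 0.967 and 0.967). All points share the division into pull-down and input, and the best of 9005 to 11525 genes are high by selection. Each r is a description.

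The 7 genes were then set beside the pathways they belong to. Over all genes tested, 6.01% were called higher and 5.83% lower in Cre- (median -0.04), 4.72% and 2.19% in Cre+ (median 0.08), and 2.3% and 2% by the test of the difference (median 0.13), and the counts below stand against these shares. The lists too were chosen with earlier results of these data known, so their counts are descriptions. Of 44 other EF-hand buffers and sensors, 40 were tested in Cre-, of which 3 were called higher and 11 lower, with a median log2 fold change of -0.51. Those higher were Vsnl1 (1.44, FDR = 0.00196), Ncald (1.13, FDR = 0.00978) and Kcnip2 (1.20, FDR = 0.0373), neuronal calcium sensors and a potassium channel-interacting protein. Among those lower were S100a11 (-2.30, FDR = 8.47e-05), Kcnip4 (-1.54, FDR = 0.000125) and Efhd2 (-1.59, FDR = 0.000159). In Cre+, 28 were tested, of which 0 were called higher and 3 lower, S100a10 (-1.91, FDR = 0.042), Capns1 (-1.09, FDR = 0.0513) and S100a6 (-2.22, FDR = 0.0614), with a median of -0.45. By the test of the difference, Kcnip4 was higher (1.19, FDR = 0.0649) and S100b (-1.65, FDR = 0.0364) and Vsnl1 (-1.75, FDR = 0.0838) were lower in Cre+, and 25 of 28 were not called.

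Of 41 calmodulin effectors and binders, 34 were tested in Cre-, with 4 called higher and 2 lower, the latter near the share of all genes, and a median of 0.20. They included Camk4 (1.57, FDR = 0.00138), a nuclear kinase, the calmodulin-stimulated cyclase Adcy1 (1.28, FDR = 0.00183) and Camk2b (1.03, FDR = 0.00631), and in the lower direction the growth-associated Gap43 (-1.75, FDR = 0.000111) and Marcks (-1.32, FDR = 0.000561). In Cre+, 33 were tested, with 3 called higher (Add2, 1.27, FDR = 0.054; Adcy1, 2.05, FDR = 0.056; Camsap2, 1.06, FDR = 0.0654), 0 lower and a median of 0.13. Among 34 genes 0 passed the test of the difference. Of 30 calcium pumps, exchangers and store channels, 21 were tested in Cre-, with 5 higher and 1 lower and a median of 0.12. Those with the smallest FDR were the plasma membrane pumps Atp2b2 (1.67, FDR = 9.61e-05) and Atp2b3 (1.28, FDR = 0.00026) and the ryanodine receptor Ryr2 (2.19, FDR = 0.000388), and the store-operated channel subunit Orai3 was lower (-1.49, FDR = 0.00656). In Cre+, Ryr2 was higher (4.25, FDR = 0.0626) and the chaperone Canx lower (just past 2-fold, FDR = 0.0792), of 22 tested. No gene of the 22 passed the test of the difference.

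Of 16 osteopontin receptors and processing enzymes, 11 were tested in Cre-, where the integrin subunit Itgav was higher (1.01, FDR = 0.0547) and the hyaluronan and osteopontin receptor Cd44 lower (-1.51, FDR = 0.0133), with a median of 0.17. In Cre+ 8 were tested, 1 was called lower, the integrin subunit Itgb1 (-1.15, FDR = 0.0757), and the median was 0.73. Itgb1 also differed between the genotypes (-1.23, FDR = 0.0965). Of 15 whirlin partners, 5 were tested in each genotype and 0 were called in either, with medians of 0.25 in Cre- and 0.87 in Cre+. The other proprioceptor markers, Runx3 included, had 10 of 13 genes higher and 1 lower in Cre- (median 2.05). The largest value was that of Runx3 (3.52). Those higher with the smallest FDR were the nuclear receptor Esrrg (2.57, FDR = 2.68e-05), the neurotrophin-3 receptor Ntrk3 (2.05, FDR = 4.71e-05) and the neurofilament Nefh (1.35, FDR = 5.2e-05). Fxyd7 was lower (-1.03, FDR = 0.0415). In Cre+ 1 of 8 was higher, Ntrk3 (2.19, FDR = 0.025), and 0 were lower (median 0.90). These counts and medians cover unlike sets of genes, 13 in Cre- and 8 in Cre+, and are not directly comparable. Precision also differed, with a standard error for Ntrk3 of 0.30 in Cre+ and 0.19 in Cre-. By the test of the difference Etv1 (-2.41, FDR = 0.0159) and Slc17a7 (-1.86, FDR = 0.0689) were lower in Cre+.

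**Figure D4:**
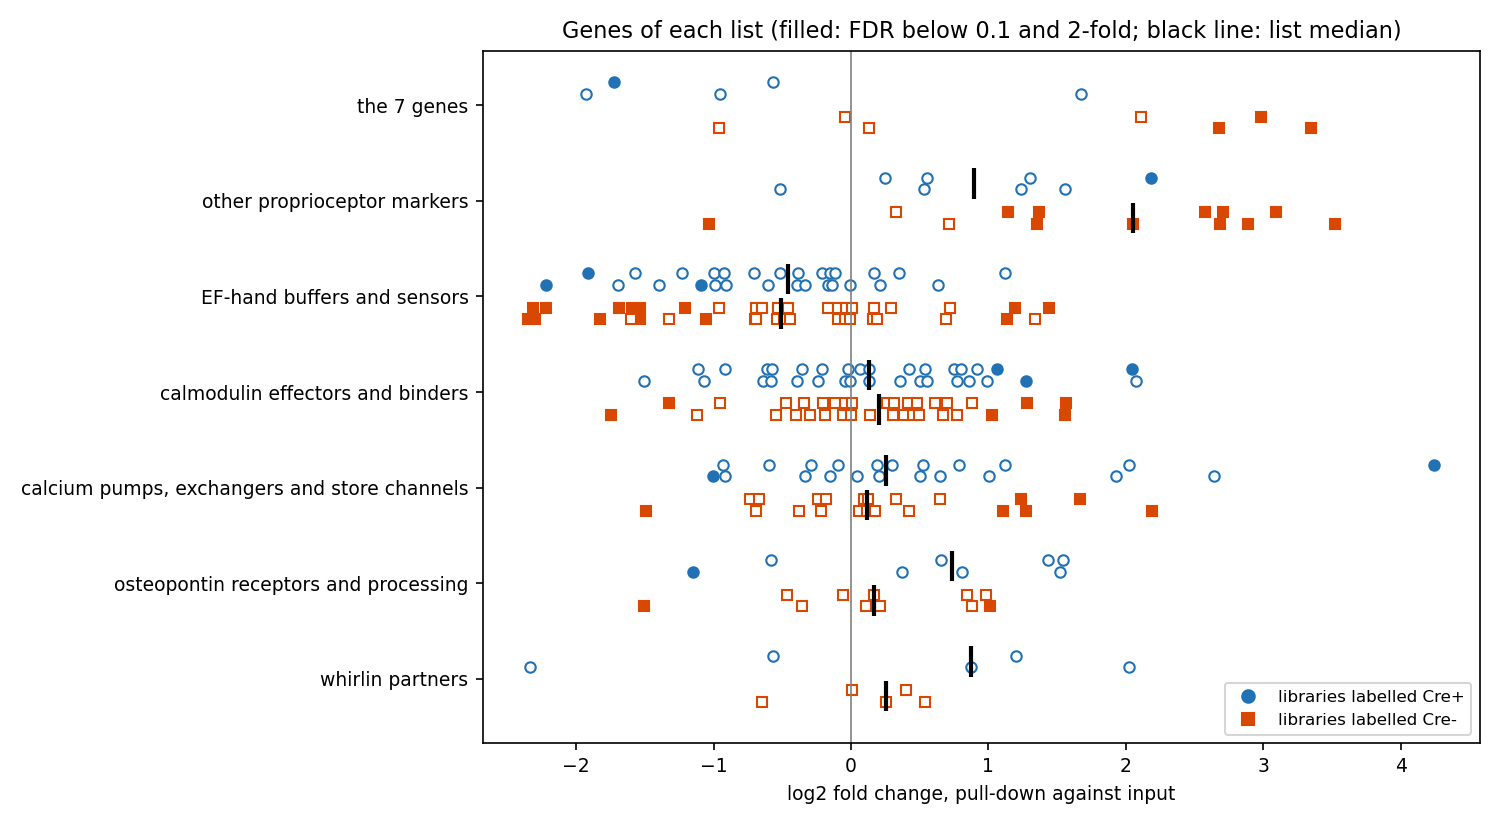
Log2 fold change of pull-down against input for each tested gene of the 7 genes and of 6 related lists, in the libraries labelled Cre+ (circles) and Cre- (squares), with the median of tested genes as a black line and called genes filled. No median is drawn for the 7 genes, and the medians of the EF-hand list are -0.51 in Cre- and -0.45 in Cre+.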

How the data were processed

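RNA was sequenced from HA pull-downs and inputs of cultured DRG neurons, and samples were grouped by genotype and fraction in their labels. The methods give a younger age and other library kits than the labels. The authors aligned reads to mm10 with STAR and deposited, per genotype, whole-number counts of read fragments per gene, made with HTSeq on refFlat from uniquely mapped reads (whether by strand is not given in the sources used here). Per the labels, CASAVA 1.8.2 and edgeR were used. A mean FPKM per gene, over the libraries of a table, was deposited with the counts and served as a filter (above 1). Columns of the authors' own log2 fold changes, p-values and FDR, and 18 per-sample columns of normalized values and ratios, were not used. The column names of the Cre+ table resemble titles of Cre- samples, so its libraries were assigned as groups and their numbers only tell them apart.

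Counts were fitted in R 4.3.3 with edgeR 4.0.16 (TMM, robust dispersions, glmQLFit and glmQLFTest), on 6 libraries within a genotype or on all 12 between genotypes, over every gene past the filter, and p-values were adjusted by Benjamini-Hochberg over all genes tested. The standard error is the log2 fold change divided by the square root of F. Alternatives were DESeq2 1.42.0, edgeR's exact test, upper-quartile scaling, library size alone, no filter, a filter of 10 counts in 3 libraries, all 12 libraries in one fit, a replicate block (Cre-), each library left out, and, added after the data were seen, dispersions not robust and fits of only the 6 libraries compared. The scripts were tested on simulated counts. Genes named are the 7 members, Runx3, for each list and direction at most 3 called genes, by FDR, and up to 3 most alike in pattern. Genes named as listed cell markers were added. Some items are not reported here. The members and lists were chosen with earlier results of these data known. Gene models came from GENCODE M21 (GRCm38), and figures from matplotlib 3.10.9. Intervals rest on 3 libraries per group, but their variance was estimated over all libraries of a fit and moderated across genes. They are therefore not the spread of a single group. For Spp1 the standard error in the fit of a genotype was 0.24 in Cre- and 0.43 in Cre+. In the fit of all 12 libraries it was 0.34 and 0.33. Reads carry no molecular identifiers.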

Additional observations from a re-analysis of the deposited data

Results flagged for a closer look

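By the test of the difference between both enrichments (edgeR's quasi-likelihood test), Spp1 was enriched less in the libraries labelled Cre+ than in those labelled Cre-, with a difference of -3.60 on the log2 scale (standard error 0.47, FDR = 0.00258). Calm2 differed the same way by -1.65 (standard error 0.42, FDR = 0.0701), a call that single libraries decided. In both genes every Cre+ pull-down lay below every Cre- pull-down, and the inputs of the genotypes overlapped. The direction of both differences rests on the labels as deposited, and whether these were exchanged was not tested.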

How the results depend on the processing

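Of 463 alternative values for the fold changes and differences of the 7 genes, 439 kept their direction and side of the threshold. Of the 7 genes, 1 was called in Cre+, against 2 with DESeq2, 2 with the exact test, 3 with library size alone and 3 in the fit of all 12 libraries, and 0 to 2 when a library was left out. In Cre- 3 were called, against 4 with the exact test and with library size alone, 2 in the fit of all 12 libraries (which holds no Pvalb), and 3 to 4 when a library was left out. With the replicate block in Cre- 3 were called, and over all genes 704 higher and 792 lower against 693 and 672. Same-numbered libraries there deviated together with r of 0.0746, 0.0335 and 0.141, each best with its own number, as a hint from the data. No paired analysis was run in Cre+ or between genotypes. The Cre+ columns could be matched to a group but not to single samples, so their numbers were not taken as pairs. The count for the difference was 2, and 1 to 3 without a library. For the pull-downs it was 2 to 3, for the inputs 0.

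Values below the threshold changed sign for Calm3 in Cre- (library size alone, -0.11), and when a library was left out for Calm2 in Cre- (-0.17 to 0.23) and between the inputs (-0.34 to 0.44). Per kilobase, Calb1 had a mean of 2.15 in Cre+ and 1.80 in Cre-, against 4.01 and 3.15 in the authors' mean FPKM. The cause was not tested.

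Calls over all genes moved more than those of the 7. In Cre+ (422 higher, 196 lower) DESeq2 gave 1103 and 568, the exact test 786 and 457, upper-quartile scaling 249 and 266, library size alone 192 and 699, and the joint fit 1254 and 955. Each of its 6 libraries moved a count, from 4 and 0 when the third input was left out to 803 and 540 for the first pull-down. In Cre- (693 and 672) library size alone gave 429 and 1238, the joint fit 270 and 173, and leaving out the first pull-down 817 and 1060. For the difference (207 and 180) DESeq2 gave 614 and 428, upper-quartile scaling 82 and 206, and library size alone 69 and 275. All libraries but the first Cre- pull-down moved it, between 13 and 30 (second Cre- input left out) and 717 and 697 (second Cre+ pull-down). For the pull-downs (970 and 641) upper-quartile scaling gave 628 and 870, library size alone 552 and 995, the 6 pull-downs alone 121 and 132, and single libraries from 372 and 323 (the third Cre- pull-down left out) to 1402 and 1098 (second Cre+ pull-down). The lowest counts lie behind Calb2 (2 to 71 per library) and Whrn in the Cre- inputs (9 to 38).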
